A study of Mus musculus with 20 samples.

Results

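Potassium channel genes were described in hypothalamus slices of wild-type C57BL/6 mice, as the protein-coding genes whose symbol starts with Kcn and whose counts averaged at least 1 CPM (counts of a gene scaled to a common library total) over the 20 libraries. This gave 78 genes of the 94 protein-coding Kcn genes and of the 55471 genes in the deposited count table, and all 78 passed the low-count filter that left 17893 genes for testing. The Kcnj13 gene, at 1.16 CPM, and Kcne4, at 1.22 CPM, lay just inside the threshold. Kcnq1, at 0.997 CPM, and Kcnrg, at 0.884 CPM, lay just outside it, and the other 14 genes below it ranged downwards from the 0.699 CPM of Kcnn4.

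The libraries fell into 3 groups. The pair-fed risperidone group (6 libraries) came from mice on a diet containing risperidone for 4 weeks with restricted food, the ad libitum risperidone group (7 libraries) from mice on that diet with free access to food, and the control group (7 libraries) from mice fed freely on control diet. The antipsychotic risperidone acts as an antagonist at dopamine D2 and serotonin 2A receptors and is known to cause weight gain, and the series asks about its action on the melanocortin 4 receptor of the brain. No control group was pair-fed, so the drug's effect under restricted food cannot be separated from that of the restriction. The labels say that body weight was matched to controls without settling for which feeding condition, and leave unsaid whether each library is from a mouse of its own. In bulk tissue, fewer cells of a type and less RNA per cell cannot be told apart.

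Potassium channels let potassium ions leave the cell, and so set the resting potential of neurons and glia, end each action potential and limit repetitive firing. Their pores are built from inward rectifier (Kcnj), leak (Kcnk), voltage-gated (Kcna, Kcnb, Kcnc, Kcnd, Kcnh, Kcnq) or calcium- and sodium-activated (Kcnm, Kcnn, Kcnt) subunits, with auxiliary subunits that change their gating or traffic. In the hypothalamus these channels carry the responses of feeding neurons to glucose, leptin, opioids and melanocortins.

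In the ad libitum group 2 libraries stood apart from the rest. Library 1 had a summed level of 1331 CPM over 10 markers of cortex, hippocampus and amygdala, against 86.9 to 114 CPM in the pair-fed libraries, 104 to 210 CPM in the other ad libitum libraries and 98.6 to 126 CPM in controls, and each of the 10 markers was higher there than in the rest of its group. Its sum over 10 hypothalamic markers was 535 CPM, against 885 to 1369 CPM in the rest of its group, and its sum over 6 oligodendrocyte markers was 3206 CPM, against 6387 to 9657 CPM. Library 3 had 9748005 counts, with 35.3% of them in its 10 highest genes, against 17316043 to 18606543 counts and 9.10% to 12.2% in the other 19 libraries. The sum over 6 striatal markers was 304 CPM in library 3 and 264 CPM in library 1, against 190 to 194 CPM in the other ad libitum libraries. It reached at most 199 CPM in pair-fed and 206 CPM in control libraries. Of these markers, 5 were higher in library 1 than in every other ad libitum library, library 3 included. The sum of library 3 thus exceeded that of library 1 through the remaining marker alone. Fold changes that involve the ad libitum group are therefore given with all libraries and without libraries 1 and 3.

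Promoters are shown for 4 of the 10 channel genes counted below as high in ad libitum library 1. Their high values come from that library only, and the promoters of Kcnh3, Kcng1 and Kcnv1, also among the 10, are not shown. Kcna5 was added as a gene with lower means in both risperidone groups than in controls. Each sequence is from RefSeq on GRCm38.p6 and runs 250 bases before to 50 bases after the annotated start, 5′ to 3′ on the minus strand, with capitals marking matches to the GC box (GGGCGG on either strand). The Kcnj4 promoter lies at chr15:79505192-79505491, that of Kcnf1 at chr12:17176839-17177138, that of Kcns1 at chr2:164171064-164171363, that of Kcnip2 at chr19:45816014-45816313 and that of Kcna5 at chr6:126535506-126535805.
Kcnj4: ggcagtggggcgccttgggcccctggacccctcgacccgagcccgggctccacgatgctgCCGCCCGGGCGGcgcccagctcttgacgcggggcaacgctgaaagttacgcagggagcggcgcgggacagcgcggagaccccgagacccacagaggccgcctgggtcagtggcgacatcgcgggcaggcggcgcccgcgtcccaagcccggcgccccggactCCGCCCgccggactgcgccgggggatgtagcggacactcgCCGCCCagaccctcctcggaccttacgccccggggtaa
Kcnf1: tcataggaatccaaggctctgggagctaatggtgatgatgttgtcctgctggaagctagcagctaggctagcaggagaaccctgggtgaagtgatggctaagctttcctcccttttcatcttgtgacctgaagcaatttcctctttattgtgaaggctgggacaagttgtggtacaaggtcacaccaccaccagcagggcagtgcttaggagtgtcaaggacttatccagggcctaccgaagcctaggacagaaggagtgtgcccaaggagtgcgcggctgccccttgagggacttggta
Kcns1: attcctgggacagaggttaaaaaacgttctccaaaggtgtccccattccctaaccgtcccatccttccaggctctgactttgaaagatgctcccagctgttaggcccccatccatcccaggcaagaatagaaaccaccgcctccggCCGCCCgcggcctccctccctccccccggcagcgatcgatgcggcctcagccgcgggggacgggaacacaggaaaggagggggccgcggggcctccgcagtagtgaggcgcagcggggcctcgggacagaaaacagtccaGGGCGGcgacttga
Kcnip2: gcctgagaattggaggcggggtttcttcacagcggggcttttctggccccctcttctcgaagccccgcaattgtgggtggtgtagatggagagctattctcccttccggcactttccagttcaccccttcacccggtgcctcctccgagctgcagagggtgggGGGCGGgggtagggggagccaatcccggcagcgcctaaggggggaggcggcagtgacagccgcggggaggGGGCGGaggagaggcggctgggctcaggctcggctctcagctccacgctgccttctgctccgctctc
Kcna5: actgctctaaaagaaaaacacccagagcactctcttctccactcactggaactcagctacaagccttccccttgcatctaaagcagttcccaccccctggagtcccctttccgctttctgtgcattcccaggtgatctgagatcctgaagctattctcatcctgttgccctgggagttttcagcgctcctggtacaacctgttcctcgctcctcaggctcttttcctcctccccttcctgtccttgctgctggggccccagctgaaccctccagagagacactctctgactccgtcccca
The Kcnj4 window held 4 GC boxes, the Kcns1 and Kcnip2 windows 2 each, and the Kcnf1 and Kcna5 windows 0. The Kcnj4 window was 76% G and C and the Kcnf1 window 53%, against a median of 52.7% over all 32851 promoters of this length and 60.3% over the 79 promoters of the 56 members found in that table. The GC box was in 50.6% of the members' promoters and 35.7% of all promoters. None of these 5 windows held the letters of the cAMP response element (TGACGTCA), the E-box (CACGTG), the TATA box (TATAAA) or the left part of the RE1 site bound by the neuronal repressor REST (TTCAGCACC), searched on both strands. These motifs were in 1.79%, 7.15%, 13.6% and 0.371% of all promoters in that order, and TATAAA was in 5.06% of the members' promoters.

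Levels between genes are compared as CPM per kilobase of exon, averaged over the 20 libraries. The highest level was that of Kcnj10, the inward rectifier Kir4.1 through which astrocytes and oligodendrocytes clear potassium, at 80.3 CPM per kilobase. It was followed by Kcnab2, a cytoplasmic beta subunit of Kv1 channels, at 33.0, by the fast Kv3 subunit gene Kcnc4 at 27.2 and by the leak channel gene Kcnk1 at 24.9 CPM per kilobase. Kcnc1 (22.1), Kcnip4 (22.0), Kcnt1 (19.3), Kcnip3 (17.8) and Kcna2 (17.3 CPM per kilobase) were also among the 10 highest. Glial and neuronal channels both stood among them.

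Over the 19 subfamilies, the summed level per kilobase was highest in Kcnj, whose 13 members held 22.6% of the summed level of all 78 genes. The Kcnj sum was 139 ± 4.32 CPM per kilobase in pair-fed libraries (SD, n = 6), 145 ± 11.7 in ad libitum libraries (SD, n = 7) and 140 ± 4.61 in controls (SD, n = 7). Next came the 4 Kcnc genes with 11.2% of the summed level, the 10 Kcnk genes with 10.4% and the 4 Kcnip genes with 10.1%. The lowest sum was that of Kcnu1, known from sperm, at 1.04 CPM per kilobase. In controls the coefficient of variation between libraries had a median of 8.66% over the 78 genes and 8.03% over all genes tested.

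**Figure D1:**
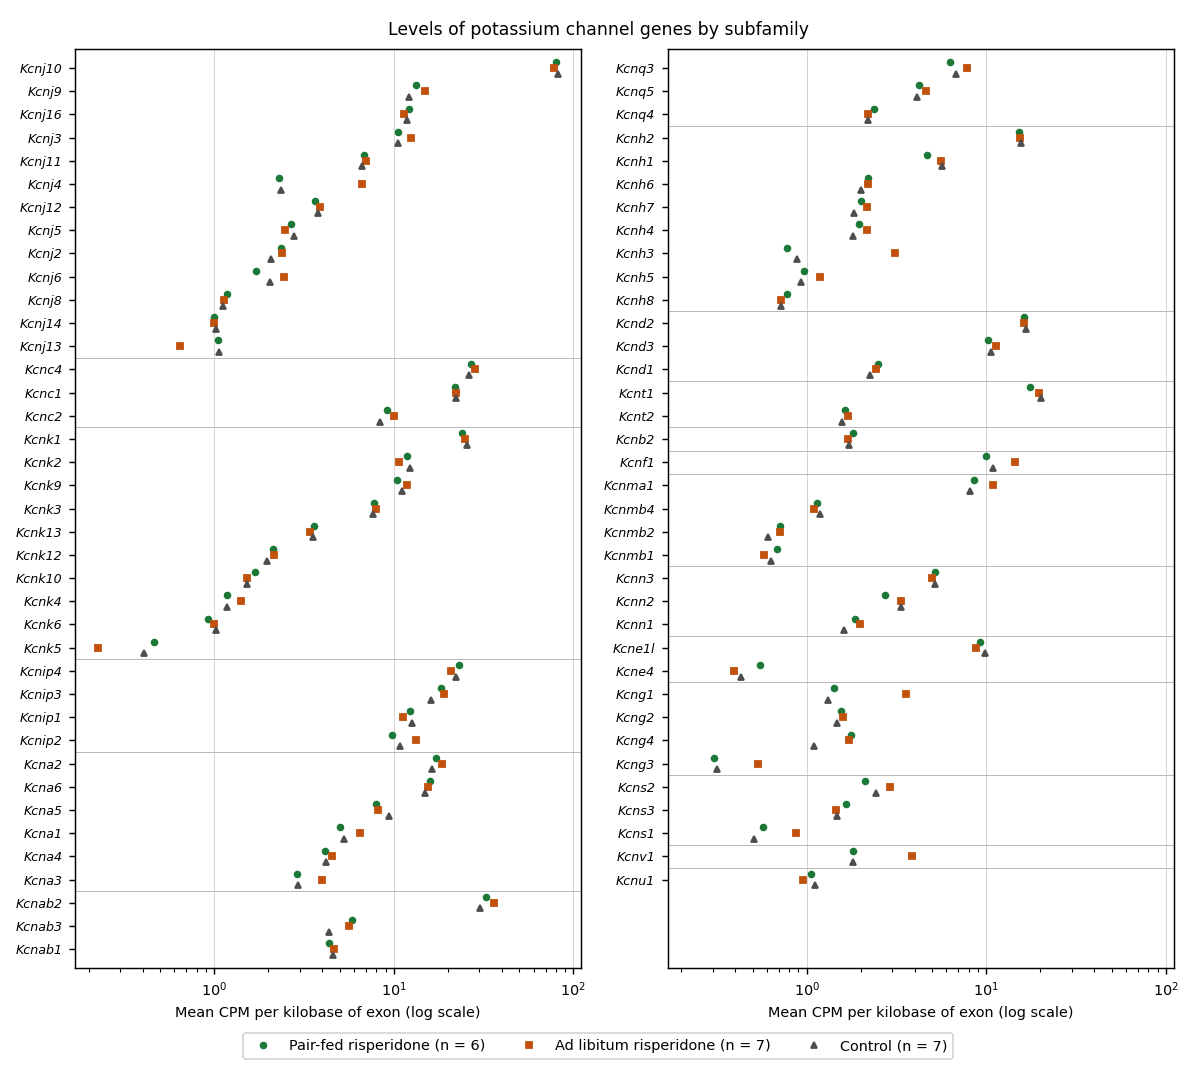
Mean level of 75 potassium channel genes in pair-fed risperidone (n = 6), ad libitum risperidone (n = 7) and control (n = 7) libraries, as CPM per kilobase of exon on a log axis, with lines between subfamilies. Kcnj10 is the highest gene at 80.3 CPM per kilobase, and the ad libitum symbols of Kcnj4, Kcnh3, Kcng1 and Kcnv1 lie to the right of the others.

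Potassium channel genes showed no change that passed the test in any of the 4 comparisons with all 20 libraries. By edgeR's quasi-likelihood test with Benjamini-Hochberg adjustment over all genes, 0 of 78 had an adjusted p under 0.05 in ad libitum risperidone against control, where 0.0615% of all genes tested passed. The count was likewise 0 of 78 in pair-fed risperidone against control (0.486% of all genes), in pair-fed against ad libitum risperidone (0.397%) and in the risperidone groups averaged against control (0.33%). DESeq2, the other tool run, called 3, 0, 1 and 1 members in these comparisons in that order. The lowest edgeR adjusted p among the members was 0.0814, 0.162, 0.115 and 0.106 in these comparisons in the same order. The distance from a member's log2 fold change to either end of its 95% interval had a median of 0.22, 0.23, 0.23 and 0.19. These intervals are unadjusted, so a typical member needed a change larger than this to pass the adjusted test.

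Before adjustment, 24 of 78 members (30.8%) had a p under 0.05 in ad libitum risperidone against control, against 13.1% of all genes tested by the same edgeR test. Of these, 21 were higher and 3 lower, where 7.14% and 5.97% of all genes were. The median log2 fold change of the 78 was 0.10, against 0.01 over all genes. Without ad libitum libraries 1 and 3, 18 members (23.1%) had a p under 0.05, against 12.5% of all genes, with 11 higher (6.04% of all genes) and 7 lower (6.46%), and the median was 0.03. For pair-fed risperidone against control the count was 10 (12.8%), against 6.66% of all genes, with 6 higher (3.06% of all genes) and 4 lower (3.6%) and a median log2 fold change of 0.01. Without ad libitum libraries 1 and 3 it was 18 (23.1%), against 11.3% of all genes, with 10 higher (5.2%) and 8 lower (6.08%) and a median of 0.01. In pair-fed against ad libitum risperidone it was 21 (26.9%), against 13.5% of all genes, with 5 higher (6.09% of all genes) and 16 lower (7.44%) and a median of −0.06. Without those libraries it was 16 (20.5%), against 10.5% of all genes, with 7 higher (5.18%) and 9 lower (5.28%) and a median of −0.03. In the risperidone groups averaged against control it was 15 (19.2%), against 7.82% of all genes, and 16 (20.5%), against 12.1%, without those libraries. These comparisons share libraries with each other.

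**Figure D2:**
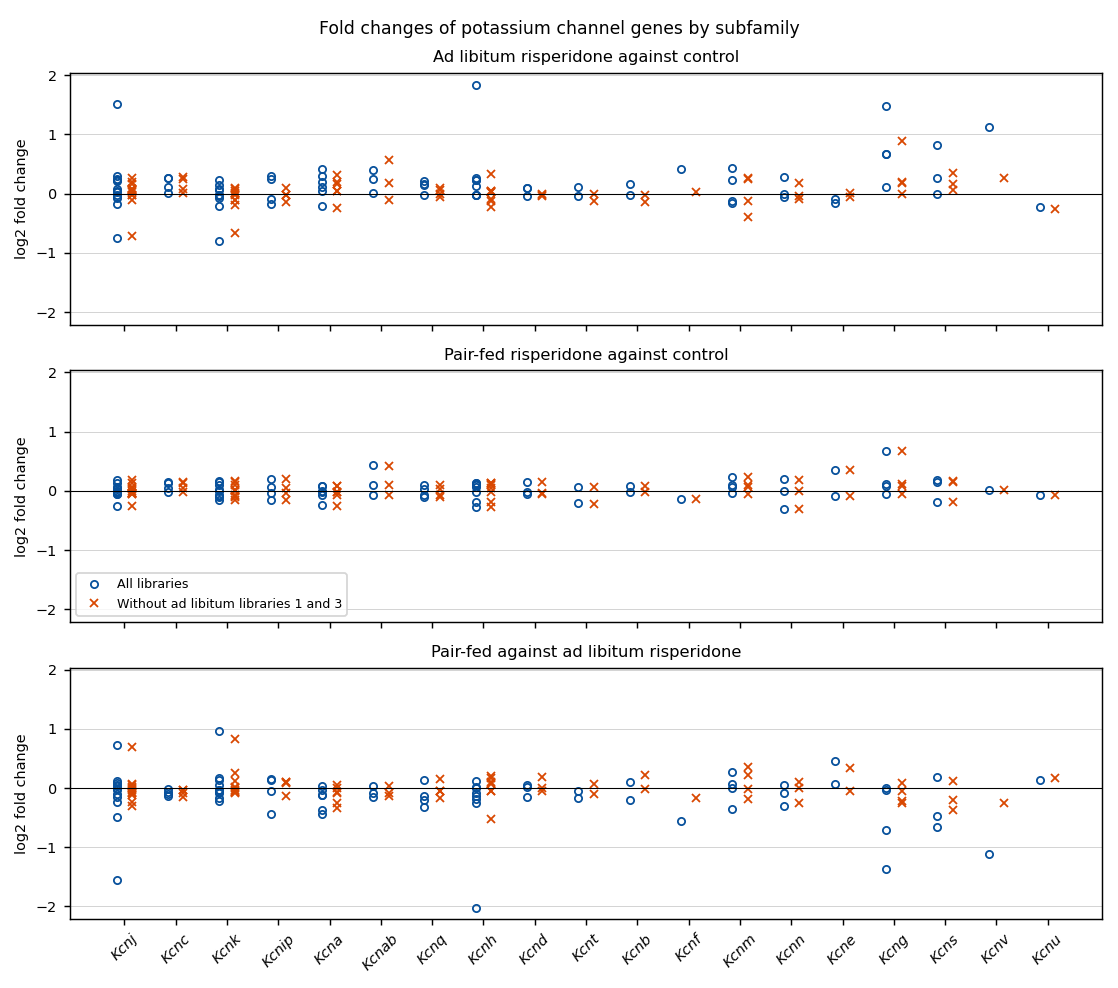
Log2 fold change of each of the 78 genes by subfamily in 3 comparisons, with all 20 libraries (circles) and without ad libitum libraries 1 and 3 (crosses). The circles at 1.84 (Kcnh3) and 1.51 (Kcnj4) in the upper panel and at −2.02 and −1.55 in the lower panel have crosses nearer to 0.

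Among inward rectifiers, the glial Kcnj10 averaged 434 ± 21.3 CPM in pair-fed, 424 ± 67.9 in ad libitum and 445 ± 20.1 in control libraries (SD, n = 6, 7 and 7). Its lowest value, 292 CPM, was in ad libitum library 1. The astrocyte markers summed to 2763 CPM there, against 2194 to 2533 CPM in the rest of the group, and the oligodendrocyte markers to 3206 CPM. The part of these cells in the Kcnj10 values was not tested. Kcnj16, which encodes the Kir5.1 partner of Kir4.1, averaged 47.5 ± 3.66, 44.7 ± 2.55 and 46.7 ± 1.63 CPM in the same groups. Both glial genes overlapped between all groups.

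Kcnj13 encodes Kir7.1, the inward rectifier to which the melanocortin 4 receptor couples in paraventricular neurons of mice, and is also known from choroid plexus. Its lowest, median and highest levels were 0.108, 1.46 and 2.23 CPM in pair-fed libraries, 0.112, 0.731 and 1.46 CPM in ad libitum libraries and 0.0559, 1.56 and 2.15 CPM in controls, from 1 to 41 counts a library. The groups overlapped throughout. Ad libitum risperidone gave a log2 fold change of −0.74 against control, with a 95% interval from −1.77 to 0.28 and an edgeR adjusted p of 0.538, and −0.72 without libraries 1 and 3. Pair-fed risperidone gave −0.02, with an interval from −0.99 to 0.94 and an adjusted p of 0.99996. Because 49.1% of its exon bases lie in Gigyf2 on the opposite strand and the strand setting of the counting is not given, some of these few counts may belong to Gigyf2. The summed level of 4 choroid plexus markers ranged from 31.8 to 84.5 CPM in pair-fed, 28.1 to 207 CPM in ad libitum and 33.2 to 64.2 CPM in control libraries, and its part in the Kcnj13 values was not tested.

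The pore of the ATP-sensitive channel, which couples glucose to firing, is encoded by Kcnj11 in neurons and Kcnj8 in vessels. Kcnj11 averaged 25.2 ± 2.18 CPM in pair-fed, 25.6 ± 1.47 in ad libitum and 24.3 ± 2.11 in control libraries (SD, n = 6, 7 and 7). Kcnj8 averaged 3.02 ± 0.425, 2.89 ± 0.343 and 2.87 ± 0.436 CPM. The group means of both genes lay within 1 SD of each other.

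The G-protein-gated rectifiers (Kcnj3, Kcnj5, Kcnj6 and Kcnj9), which opioid and dopamine D2 receptors open, spread most in the ad libitum group with all libraries. Without libraries 1 and 3 the ad libitum SD was 5.28, 0.922, 2.06 and 3.15 CPM for these genes. Of these, only that of Kcnj3 was then the largest of the groups. Kcnj6 had a lowest, median and highest level of 11.5, 12.6 and 14.9 CPM in pair-fed, 12.6, 16.9 and 27.5 CPM in ad libitum and 13.1, 14.5 and 19.4 CPM in control libraries. Pair-fed libraries were at the low end and the groups overlapped, with the 2 highest values, 27.5 and 26.5 CPM, in ad libitum libraries 1 and 3. Kcnj6 had a log2 fold change in pair-fed against ad libitum risperidone of −0.49 with all libraries and −0.23 without those 2. Kcnj3 reached 115 CPM and Kcnj9 104 CPM in library 1, against at most 63.3 and 61.7 CPM in ad libitum libraries other than 1 and 3. Kcnj5 was lowest in library 1, at 8.10 CPM.

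Of the strong inward rectifiers, Kcnj2 had levels of 10.9, 13.4 and 14.5 CPM (lowest, median and highest) in pair-fed, 11.7, 13.2 and 14.4 CPM in ad libitum and 10.01, 11.5 and 12.1 CPM in control libraries. Both risperidone groups had higher medians and overlapped with controls. Kcnj2 had a log2 fold change of 0.19 in pair-fed and 0.21 in ad libitum risperidone against control (0.19 without libraries 1 and 3), and neither passed the test.

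Among leak channels, Kcnk2 encodes TREK-1, which is opened by stretch, lipids and heat and closed by protein kinase A (chromosome 1, 189207930 to 189402273, minus strand, GRCm38). Its levels were 53.2, 58.7 and 62.3 CPM in pair-fed, 50.4, 51.8 and 57.7 CPM in ad libitum and 55.3, 62.3 and 65.6 CPM in control libraries (lowest, median and highest). The ad libitum libraries were the lowest group, and their upper end overlapped with the lower end of controls. In ad libitum risperidone against control Kcnk2 had a log2 fold change of −0.21 (SE 0.0453, edgeR adjusted p 0.0814), the smallest adjusted p of any member there, and −0.19 (adjusted p 0.0831) without libraries 1 and 3. Against control, pair-fed risperidone gave −0.07, and 12.2% of its exon bases lie under an antisense gene.

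Kcnk10 encodes TREK-2, a close relative of TREK-1. Its levels were 14.0, 14.8 and 15.7 CPM in pair-fed, 11.8, 13.0 and 16.6 CPM in ad libitum and 12.4, 13.3 and 14.6 CPM in control libraries. Library 3 held the ad libitum maximum, and without libraries 1 and 3 the ad libitum range of 11.8 to 13.1 CPM lay below every pair-fed library. Kcnk10, Kcns2 and Kcnf1 were the 3 members of 78 whose pair-fed and remaining ad libitum libraries did not overlap (1.49% of all genes). Between pair-fed and ad libitum risperidone, Kcnk10 had a log2 fold change of 0.17 (edgeR adjusted p 0.304), and 0.25 (adjusted p 0.0507) without those libraries, just short of the threshold. The acid-sensitive leak channel genes gave no such pattern, with Kcnk3 averaging 30.9 ± 1.27, 31.8 ± 3.05 and 30.5 ± 2.02 CPM and Kcnk9 128 ± 16.9, 145 ± 22.1 and 137 ± 10.5 CPM in pair-fed, ad libitum and control libraries (SD, n = 6, 7 and 7).

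Among voltage-gated channels, Kcna5 (Kv1.5, chromosome 6, 126532551 to 126535412, minus strand), a delayed rectifier known from smooth muscle and glia, had levels of 21.5, 22.8 and 24.0 CPM in pair-fed, 21.4, 22.7 and 26.5 CPM in ad libitum and 23.1, 25.8 and 32.1 CPM in control libraries. Both risperidone groups were low, and each overlapped with the lower controls. Its log2 fold change was −0.25 (SE 0.0672, edgeR adjusted p 0.166) in pair-fed and −0.21 (SE 0.0650, adjusted p 0.201; −0.24 without libraries 1 and 3) in ad libitum risperidone against control. For the risperidone groups averaged against control it was −0.23 with an adjusted p of 0.106, and without ad libitum libraries 1 and 3 it was −0.25 and passed, with an adjusted p of 0.0272. The summed level of the 6 pericyte and smooth muscle markers ranged from 155 to 222 CPM in pair-fed, 153 to 216 CPM in ad libitum and 161 to 220 CPM in control libraries, with medians of 199, 171 and 199 CPM. Of the 5 of these markers that were tested, 4 had a log2 fold change below 0 in each risperidone group against control, with a median of −0.06 in pair-fed and −0.25 in ad libitum risperidone (−0.30 without libraries 1 and 3), and 0 passed. Their part in the Kcna5 values was not tested.

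Of the other Kv1 genes, Kcna2 and Kcna6 are known from axons. Kcna2 averaged 204 ± 25.7 CPM in pair-fed, 221 ± 25.6 in ad libitum and 194 ± 21.2 in control libraries, and Kcna6 94.3 ± 3.10, 91.9 ± 2.22 and 89.0 ± 5.01 CPM (SD, n = 6, 7 and 7). Of their beta subunits, Kcnab2 averaged 181 ± 21.6, 201 ± 34.2 and 170 ± 7.67 CPM, with 273 CPM in ad libitum library 1. Kcnab3 averaged 16.8 ± 6.01, 16.2 ± 4.83 and 12.5 ± 1.08 CPM, so the SD in each risperidone group was several times that of controls. Ad libitum libraries 1 and 3 had 9.86 and 11.3 CPM of Kcnab3, and the other ad libitum libraries, at 13.8 to 22.2 CPM, all lay above the 11.2 to 13.6 CPM of controls. Its log2 fold change in ad libitum risperidone against control was 0.39 (edgeR adjusted p 0.379), and 0.56 (adjusted p 0.143) without libraries 1 and 3. Kcnab3 and Kcnc2 were the 2 members of 78 whose remaining ad libitum and control libraries did not overlap (1.17% of all genes).

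Kv3 channels let neurons fire fast, and all 4 Kcnc genes had a log2 fold change above 0 in ad libitum risperidone against control (0.00 to 0.26), where 52.9% of all genes did. Kcnc2 (Kv3.2, chromosome 10, 112271121 to 112467024, plus strand) had levels of 56.7, 67.6 and 72.2 CPM in pair-fed, 64.9, 70.6 and 83.6 CPM in ad libitum and 51.5, 60.3 and 64.2 CPM in control libraries. Every ad libitum library lay above every control, which made Kcnc2 the 1 member of 78 whose groups did not overlap in that comparison (0.33% of all genes), while pair-fed libraries overlapped with both groups. Its log2 fold change in ad libitum risperidone against control was 0.26 (SE 0.0625, edgeR adjusted p 0.115), and 0.28 (adjusted p 0.0614) without libraries 1 and 3. The value for pair-fed risperidone against control was 0.14 (adjusted p 0.745).

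**Figure D3:**
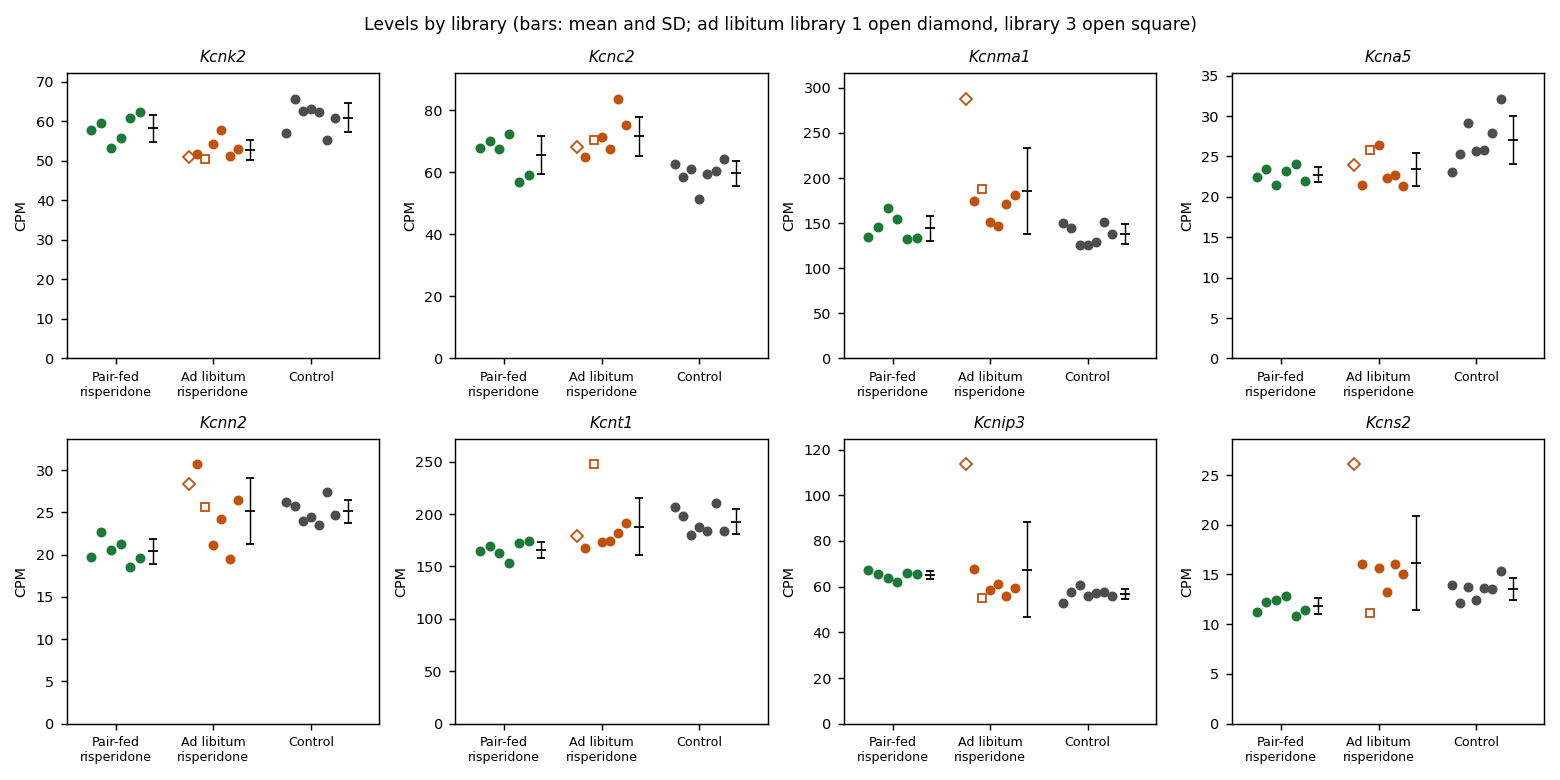
Level in CPM of 8 members in each pair-fed risperidone (n = 6), ad libitum risperidone (n = 7) and control (n = 7) library, with bars for the mean and SD. Ad libitum library 1 (open diamond) lies far above its group for Kcnma1, Kcnip3 and Kcns2, and library 3 (open square) for Kcnt1.

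Kv4 channels carry the A-type current, and their KChIP partners, calcium sensors encoded by Kcnip genes, raise that current. Kcnip3, whose product is also known as the transcriptional repressor DREAM (chromosome 2, 127456498 to 127522094, minus strand), had levels of 62.2, 65.6 and 67.2 CPM in pair-fed, 55.1, 59.5 and 114 CPM in ad libitum and 52.7, 57.2 and 60.5 CPM in control libraries. All pair-fed libraries lay above all controls, and the 114 CPM belonged to ad libitum library 1. The log2 fold change in pair-fed risperidone against control was 0.20 (SE 0.118, edgeR adjusted p 0.864) with all libraries. Without ad libitum libraries 1 and 3 it was 0.19 (SE 0.0406, adjusted p 0.0108) and Kcnip3 rose, where 1.39% of all genes passed. The pair-fed and control libraries are the same in both fits, in which the estimate of the spread is shared over the 3 groups.

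Of the other Kv4 partners, Kcnip2 had a median level of 35.2 CPM in pair-fed, 35.3 CPM in ad libitum and 35.9 CPM in control libraries, with 101 CPM in ad libitum library 1 against 32.9 to 46.9 CPM in the rest of that group. The groups overlapped. Its log2 fold change was 0.29 in ad libitum risperidone against control and −0.44 in pair-fed against ad libitum risperidone (edgeR adjusted p 0.535 and 0.352), and −0.02 and −0.13 without libraries 1 and 3. Kcnip1 averaged 76.5 ± 4.01 CPM in pair-fed, 69.4 ± 7.91 in ad libitum and 78.3 ± 1.97 in control libraries (SD, n = 6, 7 and 7), with 54.1 CPM in ad libitum library 1. Its log2 fold change in ad libitum risperidone against control was −0.18 with all libraries and −0.15 without libraries 1 and 3, and neither passed. The pore gene Kcnd2 averaged 84.0 ± 4.65, 83.1 ± 8.35 and 85.7 ± 4.06 CPM in the same groups.

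Kcnq3 encodes a subunit of the channel for the M-current, which muscarinic and other receptors close. Its lowest, median and highest levels were 88.2, 92.7 and 95.7 CPM in pair-fed, 94.0, 108 and 170 CPM in ad libitum and 85.3, 103 and 108 CPM in control libraries. The ad libitum group overlapped with both others, with library 1 at its top. It had a log2 fold change of −0.32 in pair-fed against ad libitum risperidone with all libraries and −0.17 without ad libitum libraries 1 and 3, and neither passed. Kcnh2, the ether-a-go-go related channel whose protein in the heart many antipsychotics block, averaged 74.1 ± 2.90, 74.6 ± 7.92 and 75.5 ± 2.27 CPM. The control and pair-fed means of Kcnh2 differed by less than 1 SD.

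Of the channels opened by calcium or sodium, Kcnma1, the pore of the large-conductance BK channel (chromosome 14, 23289431 to 24014491, minus strand), had levels of 133, 140 and 166 CPM in pair-fed, 147, 174 and 287 CPM in ad libitum and 125, 137 and 152 CPM in control libraries. The ad libitum libraries were the highest group, with library 1 at the top, and their lower end overlapped with both other groups. The log2 fold change in ad libitum risperidone against control was 0.43 (SE 0.109, edgeR adjusted p 0.135), and 0.26 (SE 0.0646, adjusted p 0.0824) without libraries 1 and 3. In pair-fed against ad libitum risperidone it was −0.36 (adjusted p 0.191), and −0.19 (adjusted p 0.244) without them.

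Kcnn2 encodes SK2, which produces the afterhyperpolarization that spaces action potentials. Its levels were 18.5, 20.2 and 22.7 CPM in pair-fed, 19.5, 25.6 and 30.7 CPM in ad libitum and 23.5, 24.7 and 27.4 CPM in control libraries. Every pair-fed library lay below every control, and the ad libitum libraries overlapped with both. For Kcnn2 the log2 fold change in pair-fed risperidone against control was −0.30 (SE 0.0815, edgeR adjusted p 0.162), and leaving out ad libitum libraries 1 and 3 gave −0.30 (SE 0.0776) with an adjusted p of 0.0504. When the pair-fed and control libraries were fitted alone it was −0.30 with an adjusted p of 0.00274, and passed. In pair-fed against ad libitum risperidone it was −0.30 (adjusted p 0.126), and −0.26 (adjusted p 0.202) without those libraries. Kcnn1 and Kcnn3, the other SK genes measured, averaged 8.49 ± 1.04 and 54.0 ± 3.89 CPM in pair-fed libraries, 9.04 ± 1.38 and 52.1 ± 3.31 CPM in ad libitum libraries and 7.44 ± 0.891 and 54.0 ± 3.94 CPM in controls (SD, n = 6, 7 and 7).

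Kcnt1 encodes Slack, the sodium-activated channel (chromosome 2, 25863734 to 25918273, plus strand). Its levels were 153, 167 and 174 CPM in pair-fed, 167, 179 and 247 CPM in ad libitum and 180, 187 and 210 CPM in control libraries. Every pair-fed library lay below every control, and the 247 CPM belonged to ad libitum library 3. With all libraries the log2 fold change in pair-fed risperidone against control was −0.21 (SE 0.0698, edgeR adjusted p 0.344). Without ad libitum libraries 1 and 3 it was −0.22 (SE 0.0432, adjusted p 0.00682) and Kcnt1 fell. In ad libitum risperidone against control it was −0.04 with all libraries and −0.12 (adjusted p 0.268) without those 2. Kcnn2, Kcnt1 and Kcnip3 were the 3 members of 78 (3.85%) whose pair-fed and control libraries did not overlap, against 1.2% of all genes.

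Kcnf1, Kcng, Kcns and Kcnv genes encode electrically silent subunits, which form no channel alone and change Kv2 channels when they join them. Kcns2 had levels of 10.8, 11.8 and 12.8 CPM in pair-fed, 11.1, 15.7 and 26.1 CPM in ad libitum and 12.1, 13.7 and 15.4 CPM in control libraries. The ad libitum extremes were library 1 at the top and library 3 at the bottom, and without these the range of 13.3 to 16.1 CPM lay above every pair-fed library. The log2 fold change in pair-fed against ad libitum risperidone was −0.46 (SE 0.125, edgeR adjusted p 0.115), and −0.36 (SE 0.0688, adjusted p 0.00714) without libraries 1 and 3, where Kcns2 fell and 0.79% of all genes passed. In pair-fed risperidone against control it was −0.20 (adjusted p 0.175) without those libraries.

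Kcnf1 (chromosome 12, 17172100 to 17176888, minus strand) had levels of 44.9, 47.7 and 49.1 CPM in pair-fed, 49.7, 52.8 and 170 CPM in ad libitum and 48.8, 52.0 and 55.6 CPM in control libraries. All pair-fed libraries lay below all ad libitum libraries, the 1 member of 78 for which this held (0.632% of all genes), and they overlapped with the lowest control. Between pair-fed and ad libitum risperidone the log2 fold change was −0.56 (SE 0.218, edgeR adjusted p 0.293), and −0.17 (SE 0.0402, adjusted p 0.0347) without libraries 1 and 3. In pair-fed risperidone against control it was −0.14 (adjusted p 0.994), and −0.14 (adjusted p 0.04996) without them.

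Without ad libitum libraries 1 and 3, then, the members that passed were Kcnt1, Kcnip3 and Kcnf1 in pair-fed risperidone against control (3 of 78, against 1.39% of all genes) and Kcns2 and Kcnf1 in pair-fed against ad libitum risperidone (2 of 78, against 0.79%). In the risperidone groups averaged against control, Kcnt1, Kcna5 and Kcnip3 passed (3 of 78, against 1.07%), with adjusted p of 0.0247, 0.0272 and 0.0489 by edgeR. In ad libitum risperidone against control 0 of 78 passed (0.267% of all genes), with 18 at an unadjusted p under 0.05. Among the changes that passed, the −0.36 of Kcns2 was the largest in size.

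Cell type and region markers also differed between the groups without these libraries. The 6 oligodendrocyte markers were all higher than in control, with a median log2 fold change of 0.15 in pair-fed and 0.31 in ad libitum risperidone. Of these, Mobp passed in ad libitum risperidone, at 0.42 with an edgeR adjusted p of 0.0333. Their summed level ranged from 6865 to 9156 CPM in pair-fed, 7411 to 9657 CPM in the remaining ad libitum and 5945 to 8314 CPM in control libraries. Of the 10 hypothalamic markers, 8 were lower in pair-fed and 9 in ad libitum risperidone than in control. The medians were −0.18 and −0.33, and 0 passed. In the risperidone groups averaged against control 1 of the 10 passed, as lower. The hypothalamic sums ranged from 894 to 1359 CPM in pair-fed, 885 to 1369 CPM in the remaining ad libitum and 1194 to 1581 CPM in control libraries. Of the 6 striatal markers, 4 were lower and 1 of these passed in pair-fed risperidone against control, and likewise in the averaged comparison. In pair-fed against ad libitum risperidone all 6 astrocyte markers were lower, with a median of −0.13, and 1 passed. Choroid plexus markers were split in ad libitum risperidone against control, with 2 higher and 2 lower. In that comparison the median was 0.30 for thalamic, 0.28 for choroid plexus and 0.27 for cortical markers. It was −0.36 for meningeal, −0.30 for pericyte and −0.28 for ependymal markers, and 0 markers of these lists passed. In pair-fed risperidone against control, where members passed, the medians of the same lists in that order were −0.02, −0.16, −0.03, −0.06, −0.06 and −0.08. In pair-fed against ad libitum risperidone they were −0.25, −0.66, −0.25, 0.32, 0.25 and 0.28. The part of tissue or cell makeup in the changes of the members that passed was not tested.

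**Figure D4:**
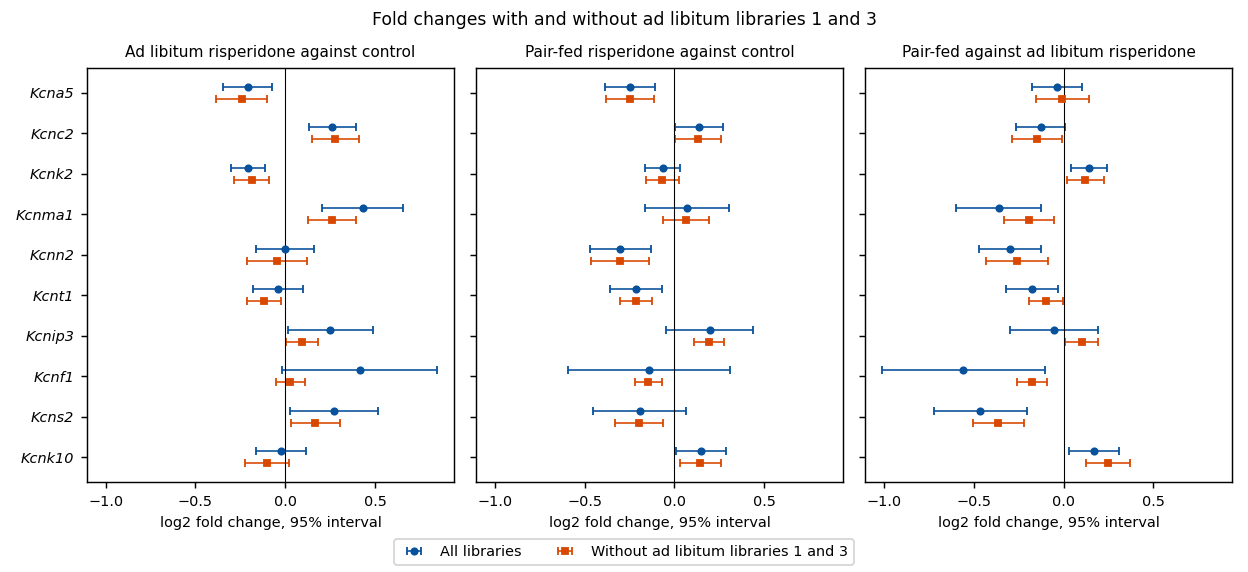
Log2 fold change with its 95% interval for 10 members in 3 comparisons, with all 20 libraries (blue circles) and without ad libitum libraries 1 and 3 (orange squares). The intervals of Kcnip3, Kcnf1 and Kcns2 are narrower without those libraries, and the Kcnt1 value in pair-fed risperidone against control is −0.21 with them and −0.22 without.

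In ad libitum library 1, 10 of 78 members (12.8%) lay more than 1 on the log2 scale above the median of the other libraries of the group, against 2.96% of all genes, and 1 member lay as far below (1.96% of all genes). Of the 9 silent subunit genes measured, 4 (Kcnf1, Kcng1, Kcns1 and Kcnv1) were above this limit and 1 (Kcng4) below it. Kcnh3, an Elk channel of forebrain neurons, had 87.8 CPM there, against 3.32 to 12.7 CPM in the rest of the group. Kcng1 had 75.3 CPM against 4.87 to 11.0, Kcnv1 68.5 CPM against 6.48 to 13.4, and Kcnj4, the strong rectifier Kir2.3, 63.3 CPM against 4.05 to 9.39.

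Kcnf1 (170 CPM), Kcnip2 (101 CPM), Kcnj3 (115 CPM), Kcnh4 (18.7 CPM), Kcns1 (7.01 CPM) and Kcnmb4 (6.77 CPM) were the other genes above that limit in library 1. Kcng4 was the gene below it, at 2.60 CPM against 4.51 to 11.3 CPM. In library 3, 2 members lay as far above the median of their group and 1 as far below, against 5.09% and 1.12% of all genes. Ad libitum library 2, whose cortical marker sum of 210 CPM was the next highest, also held the next highest level in its group of 9 of these 10 genes. The exception was Kcnmb4, whose next highest level, 3.80 CPM, was in library 3. The part of cortical, hippocampal or amygdalar tissue in these values was not tested.

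**Figure D5:**
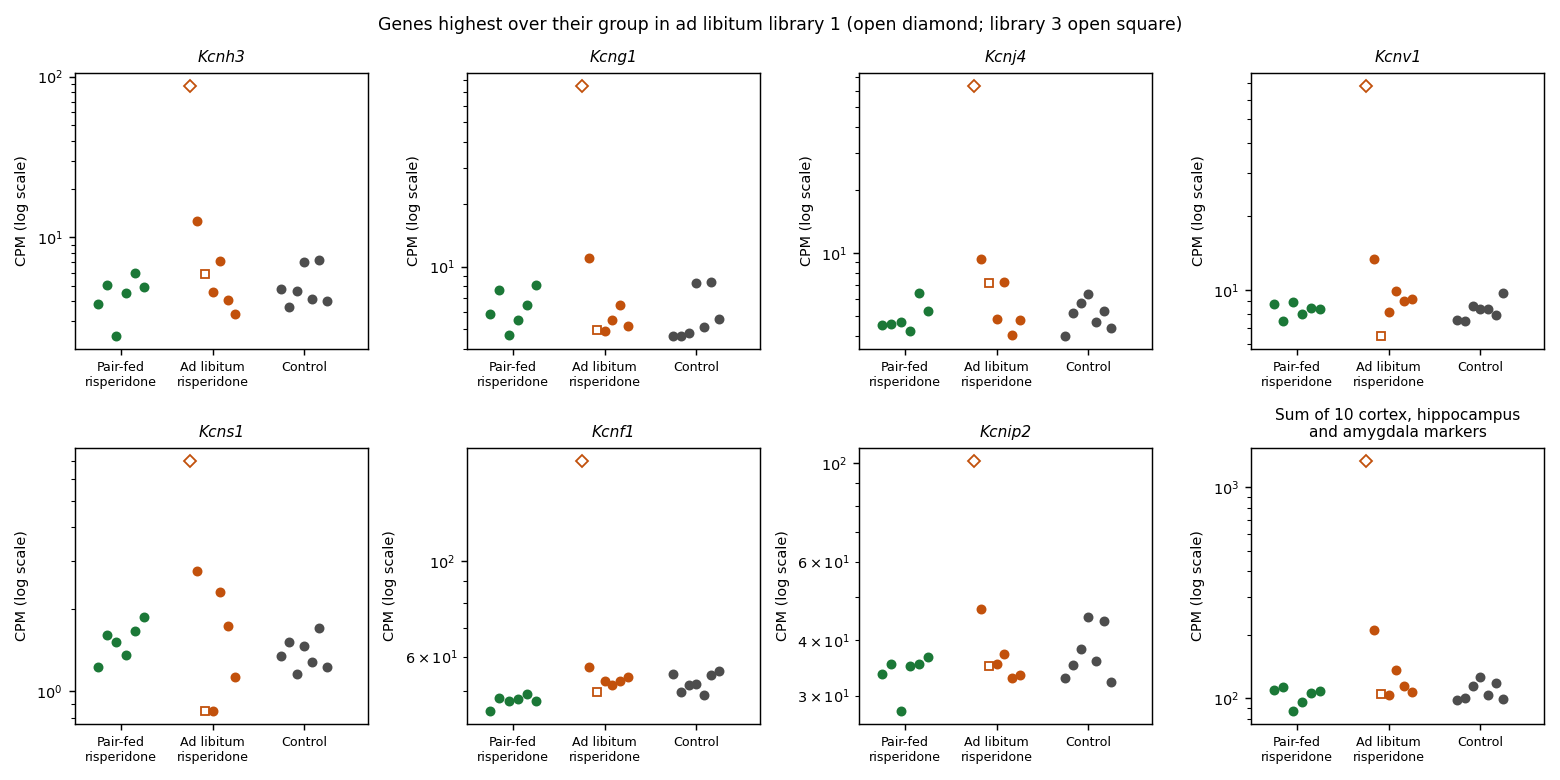
Level in CPM on log axes of 7 members and the sum of 10 cortex, hippocampus and amygdala markers in each pair-fed risperidone, ad libitum risperidone and control library. Ad libitum library 1 (open diamond) is the highest of the 20 libraries in every panel, at 87.8 CPM for Kcnh3 and 1331 CPM for the marker sum.

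With all libraries, Kcnh3, Kcnj4 and Kcng1 had the 3 largest fold changes of any member in the comparisons with the ad libitum group. In ad libitum risperidone against control the log2 fold change was 1.84 for Kcnh3, 1.51 for Kcnj4, 1.47 for Kcng1 and 1.12 for Kcnv1 with all libraries, and 0.34, 0.26, 0.17 and 0.26 without libraries 1 and 3. In pair-fed against ad libitum risperidone it was −2.02, −1.55, −1.36 and −1.11 for the same genes, and −0.52, −0.30, −0.06 and −0.26 without them. None of these 16 values passed the edgeR test. DESeq2 was run on all libraries at its default settings, which can replace outlying counts in groups as large as the ad libitum group. Whether counts of ad libitum library 1 were replaced was not recorded. It gave 1.83, 0.26, 0.10 and 0.18 in ad libitum risperidone against control. In pair-fed against ad libitum risperidone it gave −2.01, −0.30, 0.02 and −0.17, so the direction of Kcng1 turned there. In pair-fed risperidone against control, which uses neither library 1 nor library 3 in its means, the values were −0.18, −0.04, 0.12 and 0.01.

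Kcng4, the silent subunit Kv6.4, had the largest fold change of any member in pair-fed risperidone against control, and in ad libitum risperidone against control without libraries 1 and 3. Its levels were 2.73, 6.99 and 12.7 CPM in pair-fed, 2.60, 6.66 and 11.3 CPM in ad libitum and 3.24, 4.08 and 5.67 CPM in control libraries. Both risperidone groups spread more widely than controls and overlapped with them. The log2 fold change against control was 0.67 (SE 0.317, edgeR adjusted p 0.736) in pair-fed and 0.67 (SE 0.309, adjusted p 0.359) in ad libitum risperidone, and 0.89 (SE 0.280, adjusted p 0.167) in ad libitum risperidone without libraries 1 and 3. For the risperidone groups averaged it was 0.67, and 0.78 (adjusted p 0.145) without those libraries.

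Genes outside the Kcn symbols that build or serve the same currents were followed in a list of 19 partners, of which 18 were tested. In each comparison 0 of 18 passed, with and without ad libitum libraries 1 and 3. Their median log2 fold change was 0.02 in ad libitum and 0.01 in pair-fed risperidone against control, against 0.01 and 0.00 over all genes. Pex5l, which tethers HCN channels at dendrites, had the smallest p of the list, with a log2 fold change of 0.23 (edgeR adjusted p 0.189) in ad libitum risperidone against control and of 0.23 (adjusted p 0.155) without libraries 1 and 3. Lingo1, a partner of the BK channel, had 0.56 there with all libraries and 0.08 without libraries 1 and 3.

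A further list held 12 genes: subunits of the sodium-potassium pump, cation-chloride cotransporters and the water channel gene Aqp4, which is also an astrocyte marker. Of these, 0 passed in any comparison. Slc12a7, a potassium-chloride cotransporter, had a log2 fold change of −0.33 (edgeR adjusted p 0.302) in ad libitum risperidone against control, and −0.40 (adjusted p 0.159) without libraries 1 and 3. Atp1b3, a beta subunit of the sodium-potassium pump, had −0.22 (adjusted p 0.266), and −0.11 (adjusted p 0.449) without those libraries. The median of the 12 genes was 0.01 in ad libitum and −0.02 in pair-fed risperidone against control.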

How the data were processed

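Per the labels' protocols, total RNA of hypothalamus slices was sequenced as paired-end reads on a DNBseq instrument. The authors deposited raw counts of reads per gene, unnormalized, with 1 column for each of the 20 libraries. The submitters' processing notes name STAR, featureCounts and DESeq2, with the builds GRCm38 and mm10. Versions, annotation release and strand setting were not given in the sources used here, so counts of genes that overlap others are uncertain: 25 of the 78 members share an exon base with another gene and 7 share at least 10% of theirs.

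Symbols, gene types, positions and exon lengths came from GENCODE M21 on GRCm38, which matched 55230 of 55471 gene identifiers; the rest held 0.00354% of counts. Counts were tested with edgeR 4.0.16 in R 4.3.3 by the quasi-likelihood F test, two-sided, with TMM scaling, filterByExpr at a minimum count of 10 and 1 fit over the 20 libraries, adjusted by Benjamini-Hochberg over the 17893 genes kept. A gene passed at an adjusted p under 0.05. Levels are TMM-scaled CPM, with a prior count of 2 for log values. The membership rule used CPM by column total. The procedure was tested on simulated data. Whether libraries are separate animals is not stated, so p-values cover the spread between libraries, part of which may be technical.

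Members and lists were chosen with earlier results of these data known. Named were the members that passed, the 10 with the smallest p in each comparison, the highest per kilobase overall and in each subfamily, those next to the threshold, and the 10 that differed most in ad libitum library 1. Members described outside this rule (the ATP-sensitive, G-protein-gated and acid-sensitive channel genes, and Kcnj16) were added for their function after values were seen. Values of some members are not reported here. Alternatives were RLE scaling, no filter or a mean of at least 1 CPM, DESeq2 1.42.0, the groups compared alone, the replicate number as a block, each library left out, and ad libitum libraries 1 and 3 left out together. Pairs of libraries within a group all differed by more than sampling noise (57 pairs, lowest chi-square per degree of freedom 2.64).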

Additional observations from a re-analysis of the deposited data

Results flagged for a closer look

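A library was singled out where its gap to the nearest library of its group exceeded the 95% limit of Dixon's test. Over the named members this held in 19 of 123 groups. Chance alone singles out about 1 in 20 groups, but ad libitum library 1 accounted for 15 of the 19, and 9 of those 15 were members named because they differed most in that library, so the count cannot be set against chance.

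In ad libitum library 1 the high values were 273 CPM for Kcnab2, 170 CPM for Kcnf1, 75.3 CPM for Kcng1, 87.8 CPM for Kcnh3, 18.7 CPM for Kcnh4, 101 CPM for Kcnip2, 114 CPM for Kcnip3, 63.3 CPM for Kcnj4, 287 CPM for Kcnma1, 6.77 CPM for Kcnmb4, 170 CPM for Kcnq3, 7.01 CPM for Kcns1, 26.1 CPM for Kcns2 and 68.5 CPM for Kcnv1. Kcnh2 was low there, at 58.1 CPM against 71.8 to 81.3 CPM in the rest of the group. Kcnt1 was high in ad libitum library 3, at 247 CPM against 167 to 191 CPM.

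In the pair-fed group, Kcnip2 was low in library 3, at 27.7 CPM against 33.6 to 36.6 CPM, and Kcnn3 was low in library 1, at 46.4 CPM against 53.8 to 56.6 CPM. In the control group, Kcnh2 was low in library 4, at 70.5 CPM against 75.4 to 77.2 CPM.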

How the results depend on the processing

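With all 20 libraries 0 of 78 members passed in any comparison, and this held with RLE scaling, with no low-count filter and with a minimum mean of 1 CPM. DESeq2 called 3 members in ad libitum risperidone against control (Kcnk2, Kcnc2 and Kcnma1), 1 in pair-fed against ad libitum risperidone (Kcns2) and 1 in the risperidone groups averaged against control (Kcna5). The groups compared alone gave 3 in pair-fed risperidone against control (Kcnn2, Kcnip3 and Kcnt1). Leaving out ad libitum libraries 1 and 3 gave 3 in pair-fed risperidone against control, 2 in pair-fed against ad libitum risperidone and 3 in the mean of both. Leaving out 1 library gave 0 to 1 calls in each of these 3 comparisons and 0 in ad libitum risperidone against control: Kcnip3 (without ad libitum library 1) and Kcnt1 (without 3) in pair-fed risperidone against control, Kcns2 (without 3) and Kcnn2 (without 6) in pair-fed against ad libitum risperidone, and Kcnt1 (without 3) and Kcna5 (without control library 1) in the mean of both. The cause of the differences between tools was not tested.

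The replicate numbers did not pair the libraries: 2 of 19 same-numbered pairs correlated above 0.1 (range −0.16 to 0.30), and 0 of 20 libraries correlated best with their own number. The replicate block gave 0 calls in every comparison.

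Kcng1 in pair-fed against ad libitum risperidone, −1.36 with all libraries, was 0.017 with DESeq2 and −1.52 to −0.012 with 1 library left out; the cause was not tested. Values near 0 also changed sign. Kcnn2 in ad libitum risperidone against control was 0.0012 with the groups compared alone and −0.059 to 0.052 with 1 library left out. Kcnip3 in pair-fed against ad libitum risperidone was 0.10 without libraries 1 and 3 and −0.095 to 0.12 with 1 library left out. In pair-fed risperidone against control, Kcnj4 ranged from −0.13 to 0.021, Kcnj13 from −0.23 to 0.22 and Kcnv1 from −0.016 to 0.050 with 1 library left out, and Kcnv1 was −0.036 with the replicate block. Kcnk10 in ad libitum risperidone against control ranged from −0.073 to 0.0030. Membership by TMM-scaled CPM gave 79 genes, with Kcnq1 added.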
